A study of Mus musculus with 6 samples.

Results

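The genes described here encode the subunits of the transcription factor NF-kB and proteins that hold it back or modify its action. The subunit genes are Rela, Relb, Rel, Nfkb1 and Nfkb2, and the others are Nfkbia, Nfkbie, Nfkbiz, Bcl3 and Tnfaip3. They were taken by symbol, and all 10 had 1 row each among the 25805 genes listed in each of the 6 libraries. The libraries were made from total RNA of mouse kidney injured by ischaemia and reperfusion, a model of acute kidney injury in which the blood supply is stopped and restored. Of these, 3 carry the genotype label wild type and 3 the label CXCR2 knockout, a deletion of the receptor for neutrophil-attracting chemokines such as Cxcl1 and Cxcl2. Injury was common to all 6, and uninjured kidney was not analysed here. The labels give no strain, age, sex, time after injury or deleted exon. Nor do they say whether 1 animal stands behind each library, and the p-values therefore rest on a spread between libraries that may be technical. The study's title links CXCR2 to tubular autophagy through ERK1/2, NF-kB p65 and ATG5, and the comparison of the groups asks how these transcripts differ with genotype in the injured kidney.

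NF-kB is a family of dimers built from RelA (p65), RelB, c-Rel, p50 and p52. In resting cells inhibitors with ankyrin repeats, the IkB proteins, keep the dimers in the cytoplasm. Signals from receptors for TNF, interleukin-1 and microbial products activate the IKK kinases, the IkB proteins are marked and degraded, and the dimers enter the nucleus. Several of the genes they switch on encode their own inhibitors, so the pathway carries built-in negative feedback, and in injured kidney it is known for inducing chemokines and adhesion molecules in tubule and immune cells. Transcript levels as measured here do not show phosphorylation, nuclear entry or DNA binding of these proteins.

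The promoters of several of these genes hold the DNA motif that NF-kB itself binds, and the sites are shown because several of these genes, Nfkbia and Tnfaip3 among them, are known targets of the pathway they restrain. RefSeq windows on build GRCm38.p6, from 250 bases before to 50 bases after a transcript start, matched 7 of the 10 genes: Bcl3, Nfkb2, Nfkbia, Nfkbie, Rel, Rela and Tnfaip3. On either strand, the kappaB consensus of 10 letters was present in at least 1 window of 6 of these 7, Rela being the exception. Some genes have several windows, and counted by window 8 of 10 held it. Of all 32851 windows of the same length, 8.46% held it. Base composition differs, with a median GC content of 65.2% over the 10 windows of these genes and 52.7% over all windows, and among the 6703 windows with 60% to 70% GC the share was 12.6%. A looser form, GGG and CC separated by any 5 bases, on either strand and including every match of the consensus, was present in all 7 and in 50.8% of all windows. In the lines that follow, each written 5′ to 3′ on the strand of the gene, capitals mark the bases that match the consensus on one or both strands.
Nfkbia, chr12:55492657-55492686, minus strand: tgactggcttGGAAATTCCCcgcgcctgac
Nfkbie, chr17:45555584-45555613, plus strand: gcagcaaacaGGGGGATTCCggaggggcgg
Bcl3, chr7:19822734-19822763, minus strand: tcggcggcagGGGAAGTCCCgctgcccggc
Nfkb2, chr19:46304689-46304717, plus strand: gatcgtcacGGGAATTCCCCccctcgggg
Nfkb2, chr19:46304716-46304745, plus strand: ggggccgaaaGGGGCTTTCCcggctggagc
Rel, chr11:23771042-23771070, minus strand: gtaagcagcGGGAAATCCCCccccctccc
Tnfaip3, chr10:19015516-19015545, minus strand: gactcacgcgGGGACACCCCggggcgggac
Tnfaip3, chr10:19015403-19015432, minus strand: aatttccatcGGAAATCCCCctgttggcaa
The sites of Nfkbia, Nfkbie and Rel lie upstream of their genes in the GENCODE M21 annotation, with the first matching base at -29, -106 and -92 from the RefSeq start. The site of Bcl3 begins 3 bases into the RefSeq transcript, in an exon. Those shown for Nfkb2 begin at -39 and -11 from the RefSeq start and fall in an exon of a longer GENCODE model. The consensus also matched Nfkb2 at chr19:46305459-46305468, in an intron, and at chr19:46305705-46305714, in an exon, which are not printed. The latter match lies in overlapping windows of Nfkb2 and was counted in each. The sites of Tnfaip3 begin at -125 and -12 and fall in an intron of a longer model. A match is a sequence of letters and not a measured binding event.

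Library depth ran from 15518083 to 20356601 reads, recovered from the deposited normalized counts, and the 10 genes had between 62 reads (Rel) and 3157 reads (Rela) in a library. The targeted gene, Cxcr2, stood at 15.9, 88.8 and 56.9 normalized counts in wild type and was not lower under the knockout label (98.0, 36.8 and 56.6). That is a difference of 0.43 on the log2 scale (SE 0.64, limma adjusted p = 0.841), which became -0.27 when wild-type library 1 was left out and 0.94 when wild-type library 2 was. Reads outside a deleted part check nothing, and every direction given here is between libraries labelled knockout and wild type. Kidney markers were present throughout, and the 11 proximal tubule genes summed to between 211384 and 279085 normalized counts in each library, a sum of which Kap alone gave 56848 to 185452. Of these 11, 9 had higher values in labelled knockout (median log2 fold change 0.78), and the groups of Slc3a1 and Slc5a2 did not overlap. Over all tested genes, 8.27% were higher without overlap. By library, the median difference of these 11 from the wild-type mean was 1.62, 0.55 and 0.05 in labelled-knockout libraries 1, 2 and 3. Markers of other cell types differed as well. The 10 endothelial markers summed to 5430 to 13132 normalized counts in labelled knockout and 13177 to 22323 in wild type, and the 10 fibroblast and matrix markers to 7935 to 16949 and 21513 to 43752. Mean log2 levels were lower in labelled knockout for 9 of the 10 endothelial markers (median log2 fold change -0.90), 4 of them without overlap. They were lower for all 10 fibroblast and matrix markers (median -1.55), 6 of them without overlap. Of all tested genes, 9.43% were lower without overlap. In bulk tissue, fewer cells of a type and less RNA per cell cannot be told apart.

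Bcl3 had the clearest difference of the 10 genes. It encodes a nuclear IkB-like protein that binds p50 and p52 dimers and can turn them into activators. In wild-type libraries 1, 2 and 3 Bcl3 had 557, 454 and 708 normalized counts, and those labelled knockout had 1073, 1173 and 1357, in the same order. Every library labelled knockout lay above every wild-type library, a pattern that 8.27% of the 21721 tested genes showed in this direction and 9.43% in the other, and Bcl3 was the 1 gene of the 10 to show it. The means were 573 ± 127 and 1201 ± 144 (SD, n = 3 each), a log2 fold change of 1.08 (SE 0.20, 95% interval 0.63 to 1.54) on the log2(normalized count + 1) scale. It did not pass the threshold of 0.05 with limma over all genes (adjusted p = 0.329), although it ranked 31 of 21721 by p. Its adjusted p was 0.359 with edgeR, and it passed with DESeq2 (adjusted p = 0.00431). With 1 library left out the fold change stayed between 0.93 and 1.25, with limma adjusted p between 0.16 and 0.945, the values being 1.16 with labelled-knockout library 1 left out and 0.99 with library 3 left out.

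None of the 10 genes passed limma's threshold, which 0.00460% of tested genes passed in either direction, and none passed that of edgeR, which 0.00628% passed. DESeq2 called Bcl3 alone, with 1.95% of its genes called. At an unadjusted limma p under 0.05 stood 3 genes, Bcl3, Nfkbiz and Rela, all higher, where 3.94% of all genes were higher at that level and 10.1% were past it in either direction. With edgeR also 3 genes were under an unadjusted 0.05, where 11.7% of its genes were in either direction. Of the 10 genes, 9 had higher and 1 had lower mean log2 levels in labelled knockout, with a median log2 fold change of 0.43. Over all tested genes the median was -0.001 and 49.9% were higher. The median of the 10 was 0.21 without labelled-knockout library 1 and was 0.68 without labelled-knockout library 2.

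**Figure D1:**
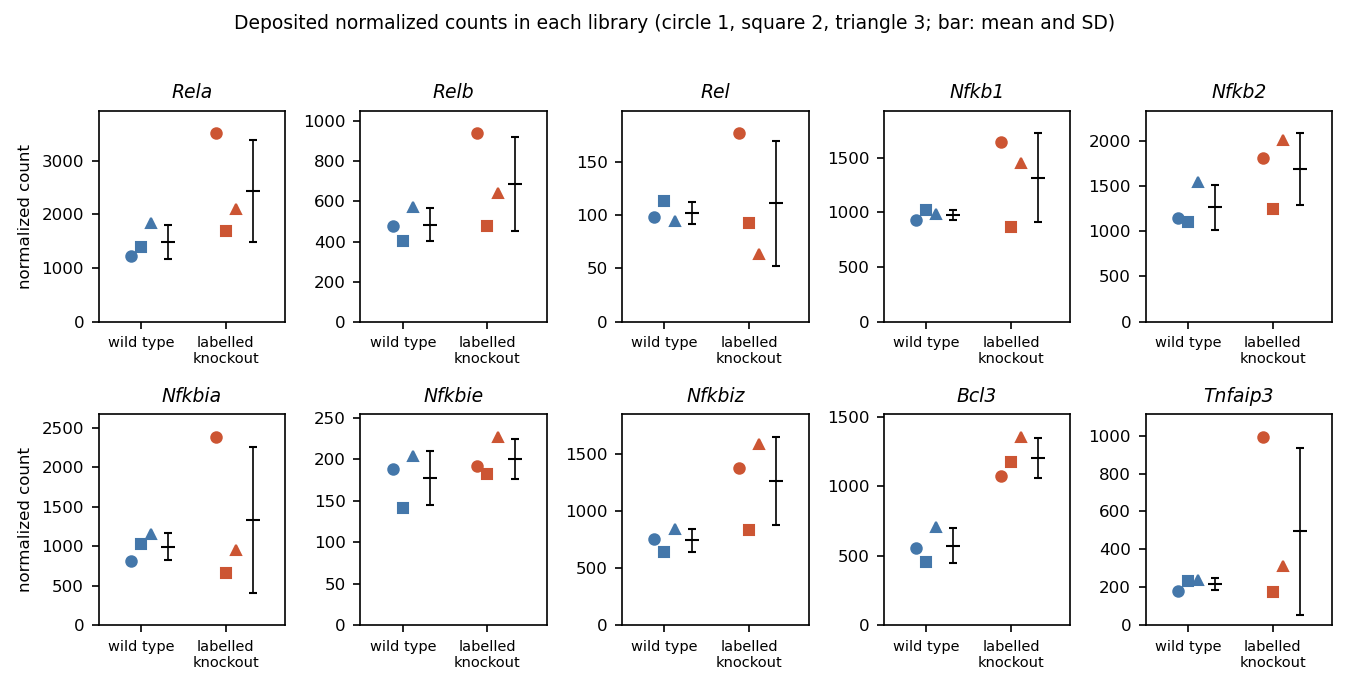
Deposited normalized counts (y axis, from 0) of the 10 genes in wild-type libraries (blue) and libraries labelled knockout (red), with circle, square and triangle for libraries 1, 2 and 3 and the bar for the mean and SD of 3. Bcl3 is the panel in which the groups are apart, and in Tnfaip3 and Nfkbia the circle of labelled-knockout library 1 stands alone, at 995 and 2386.

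Among the subunits with a transactivation domain, Rela, which encodes p65, had the most transcript. It stood at 1228, 1389 and 1844 normalized counts in wild type and at 3516, 1698 and 2104 in labelled knockout. Labelled-knockout library 1 was 2.36-fold above the wild-type mean and library 2 lay inside the wild-type range. Rela thus differed by 0.67 on the log2 scale (SE 0.28, 95% interval 0.03 to 1.30, limma adjusted p = 0.477), or by 0.37 without labelled-knockout library 1. Relb, the partner of p52 in the non-canonical branch, stood at 478, 404 and 571 in wild type and 941, 477 and 642 in labelled knockout. Its difference of 0.46 (SE 0.26, limma adjusted p = 0.578) became 0.21 when labelled-knockout library 1 was left out and 0.70 when library 2 was. Rel, which encodes c-Rel of lymphoid and myeloid cells, was the scarcest of the 10, at 98.6, 114 and 94.4 in wild type and 177, 92.9 and 63.8 in labelled knockout. The libraries labelled knockout held both its highest and its lowest value, and its log2 fold change was -0.003 (SE 0.39, 95% interval -0.89 to 0.89, limma adjusted p = 0.999). Left-out libraries moved it between -0.40 without labelled-knockout library 1 and 0.33 without library 3, so no direction can be read for Rel.

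In the genes of both precursor subunits, labelled-knockout libraries 1 and 3 were above all wild-type libraries. Nfkb1, which encodes p105 and its product p50, stood at 929, 1020 and 989 in wild type and at 1646, 866 and 1449 in labelled knockout. Library 2 was below the narrow wild-type range, and the log2 fold change was 0.38 (SE 0.24, 95% interval -0.16 to 0.92, limma adjusted p = 0.606), or 0.19 without library 1 and 0.66 without library 2. Nfkb2, which encodes p100 and its product p52, stood at 1143, 1102 and 1552 in wild type and 1818, 1248 and 2010 in labelled knockout (0.41, SE 0.22, limma adjusted p = 0.567). Leaving out labelled-knockout library 3 gave 0.27 and leaving out library 2 gave 0.61. Exons of Nfkb2 in GENCODE M21 share 18.1% of their bases with genes on the opposite strand, Psd among them. That model is longer than the deposited one, for which the share was not computed. The use of strand in counting is not given in the sources used here. Psd stood at 258, 261 and 322 normalized counts in wild type and 417, 357 and 456 in labelled knockout, and how reads were split between the overlapping genes is unknown.

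The genes of IkB-type proteins differed among themselves in library pattern. Nfkbia, which encodes IkB-alpha, the classical feedback inhibitor, stood at 806, 1021 and 1148 in wild type and at 2386, 663 and 949 in labelled knockout. Labelled-knockout library 1 was 2.41-fold above the wild-type mean, library 2 was below all wild-type libraries, and library 3 was inside their range. The log2 fold change of 0.22 (SE 0.44, 95% interval -0.81 to 1.25, limma adjusted p = 0.889) changed sign to -0.31 when labelled-knockout library 1 was left out, and lay between 0.08 and 0.62 with any other library left out. Nfkbie, which encodes IkB-epsilon, had close values in both groups, at 188, 142 and 204 against 192, 182 and 227 (0.18, SE 0.25, 95% interval -0.38 to 0.74, limma adjusted p = 0.824, and 0.03 to 0.29 with 1 library left out, the lowest without wild-type library 2). Nfkbiz, which encodes IkB-zeta, a nuclear cofactor for a subset of inflammatory targets, stood at 755, 638 and 841 in wild type and 1379, 836 and 1589 in labelled knockout. Library 2 was the 1 labelled-knockout library inside the wild-type range, and the log2 fold change was 0.73 (SE 0.25, 95% interval 0.16 to 1.29, limma adjusted p = 0.426). It stayed between 0.54 and 1.00 with 1 library left out.

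Tnfaip3, which encodes A20, a ubiquitin-editing enzyme that shuts the pathway off upstream of IKK, had the largest SE of the 10 genes. It stood at 179, 234 and 238 in wild type and at 995, 175 and 312 in labelled knockout. Library 1 was 4.59-fold above the wild-type mean, while library 2 was below all wild-type libraries. The difference of 0.81 on the log2 scale had an SE of 0.58 and a 95% interval of -0.54 to 2.17 (limma adjusted p = 0.656); it was 0.12 with labelled-knockout library 1 left out, and 1.37 with library 2 left out.

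**Figure D2:**
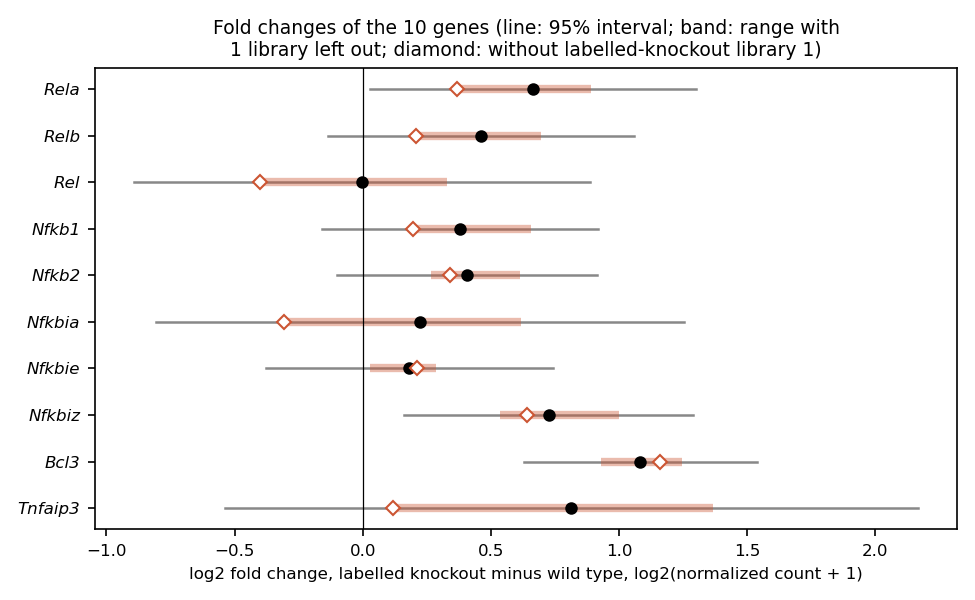
Log2 fold change of labelled knockout minus wild type (x axis, log2 of normalized count + 1) for each gene (black point), with its 95% interval (line), its range with 1 of 6 libraries left out (band) and its value without labelled-knockout library 1 (diamond). The diamond of Tnfaip3 lies at 0.12 and that of Nfkbia at -0.31, while that of Bcl3 lies at 1.16.

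Taken library by library, most of the 10 genes were above all wild-type libraries in labelled-knockout libraries 1 and 3, but not in library 2. In library 1, 9 of the 10 were above the highest wild-type value, Nfkbie being the exception, where 35.1% of all 21721 genes were above it. In library 3, 8 of the 10 were above it, against 29.7% of all genes, and Rel was below the lowest wild-type value. In library 2 the 1 gene above it was Bcl3, and 4 genes, Rel, Nfkb1, Nfkbia and Tnfaip3, were below the lowest wild-type value, where 28.8% of all genes were above and 27.2% below. The median difference of the 10 from the wild-type mean was 0.91 in library 1, -0.01 in library 2 and 0.53 in library 3 on the log2 scale. It was -0.06, -0.13 and 0.22 in wild-type libraries 1 to 3.

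**Figure D3:**
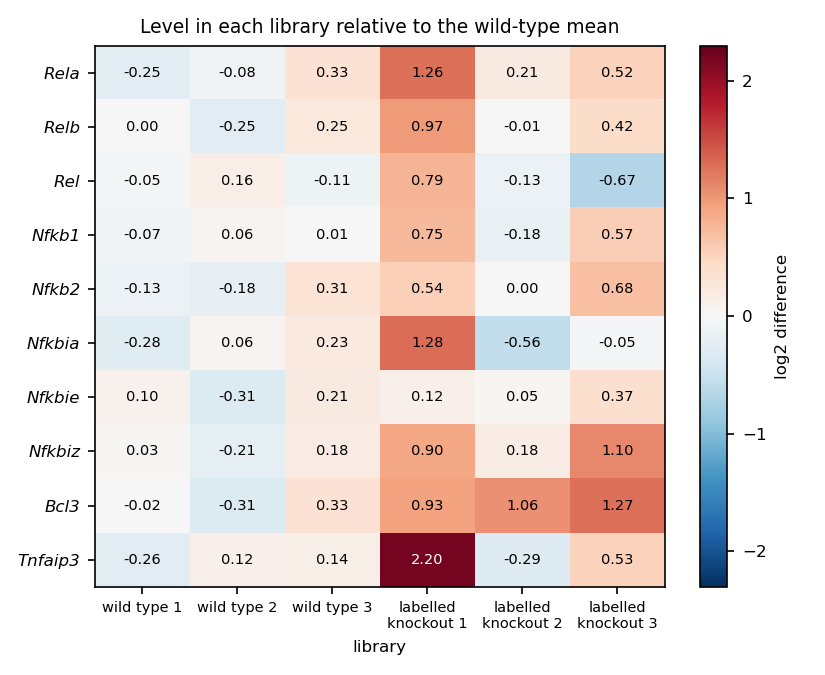
Log2 difference from the mean of the wild-type libraries (colour and printed value) for the 10 genes (rows) in each library (columns). Labelled-knockout library 1 is above 0 in all 10 rows, with Tnfaip3 at 2.20, library 3 has Nfkbiz at 1.10 and Rel at -0.67, and library 2 has Bcl3 at 1.06 with Nfkbia at -0.56.

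Cell markers and an interferon signature moved with these libraries. In library 1 the 18 neutrophil markers summed to 5155 normalized counts, against 469 to 1698 in wild type and 491 and 1187 in labelled-knockout libraries 2 and 3, with 16 of the 18 highest there. The granule gene Ngp stood at 321 in library 1 and at no more than 6.17 in any other, and Elane and Stfa2 were at 0 in all libraries but this one. The 10 fat cell markers summed to 60297 in library 1 and to 344 to 3404 in the other 5, and 8 erythrocyte genes to 13668 against 790 to 3002. In library 3 the 15 interferon-stimulated genes summed to 27846, against 1924 to 3749 in wild type and 2698 and 4311 in labelled-knockout libraries 1 and 2, with 14 of the 15 highest there. Macrophage and monocyte markers summed to 4995 to 10954 in labelled knockout and 6319 to 11007 in wild type, T and NK cell markers to 102 to 137 and 67.1 to 86.0, and B and plasma cell markers to 116 to 176 and 70.5 to 179. Of the 14 macrophage and monocyte markers, 10 had lower and 4 higher values in labelled knockout, with a median log2 fold change of -0.31. The 14 T and NK cell markers were split, with 8 higher and 6 lower, and their counts were low. In labelled-knockout library 2 the largest terms of their sum were Cd8a at 44.5 and Lck at 42.6. The part of these markers in the values of the 10 genes was not tested.

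**Figure D4:**
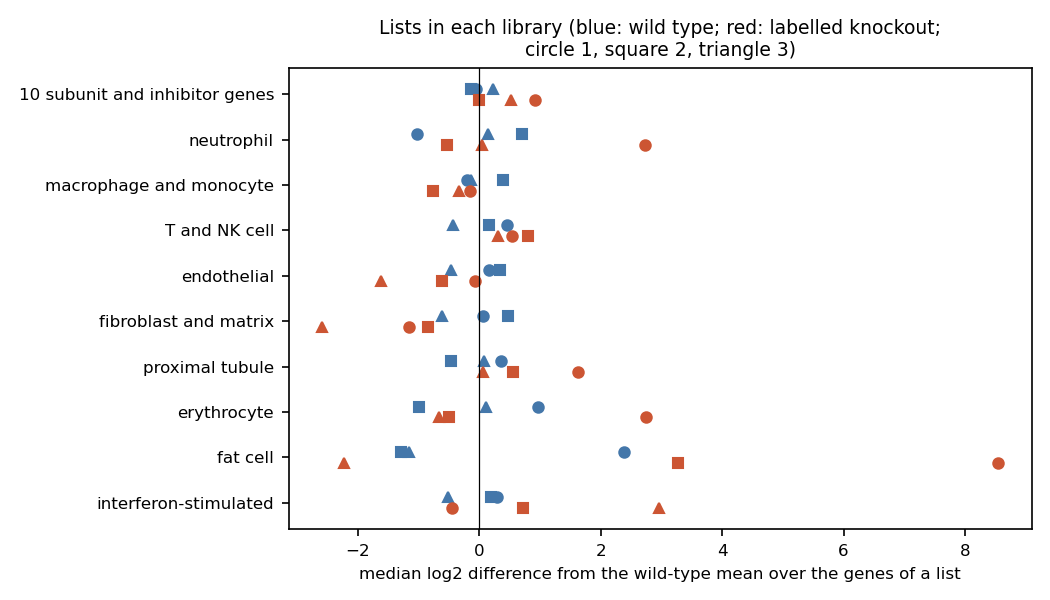
Median log2 difference from the wild-type mean (x axis) over the genes of each list (rows) in wild-type libraries (blue) and libraries labelled knockout (red), with circle, square and triangle for libraries 1, 2 and 3. Labelled-knockout library 1 is at the far right for neutrophil (2.73), erythrocyte (2.75) and fat cell (8.55) markers, and library 3 for interferon-stimulated genes (2.96) and at the far left for endothelial markers (-1.61).

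Per unit of gene length, the levels ran over a wide range in wild type. In TPM, read counts scaled by gene length and by the library's sum, the order was Nfkbia at 90.1 ± 15.0, Rela at 80.0 ± 15.3, Nfkb2 at 56.2 ± 9.31, Bcl3 at 33.7 ± 6.40 and Nfkbiz at 21.7 ± 2.24 (SD, n = 3). Relb at 18.2 ± 2.54, Nfkb1 at 11.9 ± 0.825, Nfkbie at 8.52 ± 1.29, Tnfaip3 at 4.40 ± 0.692 and Rel at 2.01 ± 0.270 TPM followed. Neighbours in this order had overlapping wild-type ranges for Nfkbia and Rela, Rela and Nfkb2, and Nfkbiz and Relb, and the other neighbours did not overlap. The length used for Nfkb1, 12061 bases, covers the whole deposited gene model, and a shorter main transcript would raise its TPM. In labelled knockout the TPM of Bcl3 was 68.7 ± 7.73, close to that of Nfkb2 at 72.2 ± 13.0, and Bcl3 exceeded Nfkb2 in 1 of the 6 libraries.

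Ratios of Nfkbia, Bcl3 and Tnfaip3 to Rela, the gene of p65, followed different library patterns. The TPM ratio of Nfkbia to Rela was 1.11, 1.24 and 1.05 in wild type, 1.14 in labelled-knockout library 1, and 0.659 and 0.761 in libraries 2 and 3. For Bcl3 to Rela the ratio was 0.498, 0.359 and 0.421 in wild type, 0.335 in labelled-knockout library 1, and 0.758 and 0.708 in libraries 2 and 3. In both ratios libraries 2 and 3 lay outside the wild-type values, while library 1 lay inside them for Nfkbia and just below them for Bcl3. The ratio of Tnfaip3 to Rela was 0.0548, 0.0634 and 0.0485 in wild type and 0.106, 0.0388 and 0.0557 in labelled knockout, so here library 1 was above the wild-type values, library 2 below and library 3 inside them. These ratios were not tested.

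By position, Bcl3 and Relb lie in the same region of chromosome 7, with other genes between them. In mm10 Relb runs from 19606217 to 19629438 and Bcl3 from 19808462 to 19822770, both on the minus strand, 179 kb apart. Within 200 kb of Bcl3 lay 9 other genes with a mean of at least 50 normalized counts, Relb included, with a median log2 fold change of 0.13. Of these 9, Clptm1, a membrane protein gene, was the 1 whose groups did not overlap, at 3501, 3222 and 4228 in wild type and 5232, 4310 and 4409 in labelled knockout, a difference of 0.35 (SE 0.17, limma adjusted p = 0.529). An antisense gene on the opposite strand, Gm16175, shares 6.51% of the exonic bases of Bcl3 and stood at no more than 11.3 normalized counts in any library. Rela (5637483 to 5648130) and Nfkb2 (46304737 to 46312090) share chromosome 19, far apart. No other gene's transcripts matched those of the 10 over at least 100 bases at 95% identity or more, apart from the genes that overlap Nfkb2.

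The genes with the pattern most like that of Bcl3 over the 6 libraries, among 11971 genes with a mean of at least 50, were Vps33a, a subunit of endosome and lysosome tethering complexes (r = 0.996), and Xpo5, the exporter of microRNA precursors (r = 0.992). Polr1b, a subunit of RNA polymerase I (r = 0.989), and the phosphatase Cdc14b (r = 0.988) followed. Vps33a stood at 764, 707 and 820 in wild type and 924, 944 and 1021 in labelled knockout, a smaller change than that of Bcl3. For Rela they were Arhgap17 (r = 0.995), Ddx23 (0.994), Sec24b (0.992) and Sbno2 (0.992), a transcriptional co-repressor. Sbno2 stood at 1927, 2060 and 2556 in wild type and 5072, 2414 and 3261 in labelled knockout, so it shared the high value of library 1. These are Pearson correlations of log2 levels over 6 libraries, given as a description of the closest of many genes.

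The rest of the pathway was described from 7 lists, of which 82 genes were tested. No gene of these lists passed limma, edgeR or DESeq2. Of the 82, 59 had higher and 23 lower values, with a median log2 fold change of 0.19 against -0.001 over all genes. The groups did not overlap in 11 that were higher and 3 that were lower, where 8.27% and 9.43% of all genes did so. At an unadjusted limma p under 0.05 stood 8 with higher and 2 with lower values, where 3.94% and 6.14% of all genes did, and 17 of the 78 that edgeR tested had an unadjusted edgeR p under 0.05, where 11.7% of all its genes did.

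Other IkB-type inhibitors were few. Nfkbib, which encodes IkB-beta, stood at 563, 602 and 818 against 985, 791 and 913 under the knockout label, a difference of 0.45 (SE 0.19, limma adjusted p = 0.479). Nfkbil1 had a difference of 0.25 with groups that did not overlap, and Nfkbid, which encodes IkB-NS, one of -0.53 that was -0.34 without wild-type library 3. Of the 4 tested, 3 had higher values, with a median of 0.17 that was 0.31 without labelled-knockout library 1 and 0.091 when library 2 was left out.

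Receptors and adaptors upstream had small differences, with 18 of 25 higher and a median of 0.17. Tab2, which links TRAF6 to the kinase TAK1, stood at 1536, 1446 and 1596 in wild type and 2518, 1718 and 2186 in labelled knockout (0.47, SE 0.18, limma adjusted p = 0.445). Tnfrsf1a, the main TNF receptor, stood at 2497, 2614 and 2908 and at 3431, 3106 and 4644 (0.46, SE 0.19, limma adjusted p = 0.467). In both genes the groups did not overlap, and they are among 3 of the 25 with that pattern. Of all tested genes, 8.27% showed it in this direction. The interleukin-1 receptor kinase gene Irak2 had a difference of 0.58 (SE 0.25, limma adjusted p = 0.484). Without labelled-knockout library 3 the difference of Tnfrsf1a was 0.29 and the median of this list was 0.0091, and leaving out wild-type library 1 gave a median of 0.091.

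Of the 6 IKK-type kinase and scaffold genes, 5 had higher values, with a median of 0.14 that was 0.075 without labelled-knockout library 3 and 0.25 when library 2 was left out. Tbk1, an IKK-related kinase, stood at 644, 652 and 572 in wild type and 1002, 673 and 850 in labelled knockout (0.42, SE 0.19, limma adjusted p = 0.499). Map3k14, which encodes NIK of the non-canonical branch, had a difference of 0.38, or 0.24 with wild-type library 2 left out. Ikbkg, the scaffold NEMO, had one of -0.31, which became -0.02 with labelled-knockout library 1 left out and -0.61 with library 3 left out. The groups of Tbk1 and Map3k14 did not overlap.

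Ubiquitin regulators had 11 of 13 genes higher and a median of 0.19, or 0.067 with labelled-knockout library 1 left out. Rnf31, which encodes HOIP, the catalytic subunit of the complex that builds linear ubiquitin chains on NEMO, stood at 530, 521 and 636 in wild type and 793, 831 and 1195 in labelled knockout. Its groups did not overlap, and its log2 fold change was 0.72 (SE 0.20, 95% interval 0.26 to 1.18, limma adjusted p = 0.39). Cyld, which removes such chains, had a difference of 0.40 (SE 0.18) and Tnip1, a partner of A20, one of 0.38 (SE 0.27) that was 0.06 without labelled-knockout library 1 and 0.60 when library 2 was left out, neither past the threshold (limma adjusted p = 0.498 and 0.658).

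Classical inflammatory targets had wide intervals, with 12 of 19 tested genes higher and a median of 0.49 that was 0.29 without labelled-knockout library 3 and 0.83 when library 2 was left out. C3, the central complement component, stood at 2380, 637 and 2478 in wild type and at 28667, 3590 and 12502 in labelled knockout (2.81, SE 0.87, 95% interval 0.70 to 4.91, limma adjusted p = 0.423). Its groups did not overlap, and labelled-knockout libraries 1 and 3 carried the highest values. Most of the 10 genes were high in the same libraries, and a link between C3 and these genes was not tested. Ccl5, a T cell chemokine, had a difference of 1.60 (SE 0.63) that was 0.98 without wild-type library 3, and Ptgs2, the inducible cyclooxygenase, one of -0.96 (SE 0.42), with limma adjusted p = 0.46 and 0.492.

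Survival and feedback targets were split, with 7 of 10 higher and a median of 0.18. Leaving out labelled-knockout library 1, 2 or 3 gave medians of -0.14, 0.40 and 0.34, and leaving out wild-type library 1 gave 0.079. Traf1, an adaptor of TNF receptors, stood at 86.1, 119 and 148 in wild type and 78.0, 75.5 and 57.6 in labelled knockout, with no overlap (-0.71, SE 0.32, limma adjusted p = 0.501). Ier3, an early response gene, had a difference of -0.60, or -0.996 and -0.29 with labelled-knockout library 1 or 3 left out. Bcl2l1, which encodes Bcl-xL, had one of 0.23, or 0.38 and 0.14 with labelled-knockout library 2 or 3 left out and 0.35 with wild-type library 3 left out. Of the non-canonical ligands and targets 5 were tested and 3 were higher, with a median of 0.33 that was 0.57 without wild-type library 1 and 0.047 when wild-type library 3 was left out. Tnfsf13b, which encodes the B cell factor BAFF, stood at 72.7, 87.0 and 43.2 in wild type and 40.1, 25.2 and 22.6 in labelled knockout, with no overlap (-1.17, SE 0.42, limma adjusted p = 0.433). Tnfsf14, which encodes LIGHT, stood at 7.52, 19.4 and 13.7 in wild type and 8.91, 5.81 and 4.12 in labelled knockout. Its difference was -0.96 (SE 0.56, limma adjusted p = 0.588), from low counts with groups that overlapped. The lymphoid chemokine gene Cxcl13 had a difference of 3.43, with 405 normalized counts in labelled-knockout library 1. The difference of Cxcl13 was 1.64 with that library left out and 5.20 with library 2 left out.

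**Figure D5:**
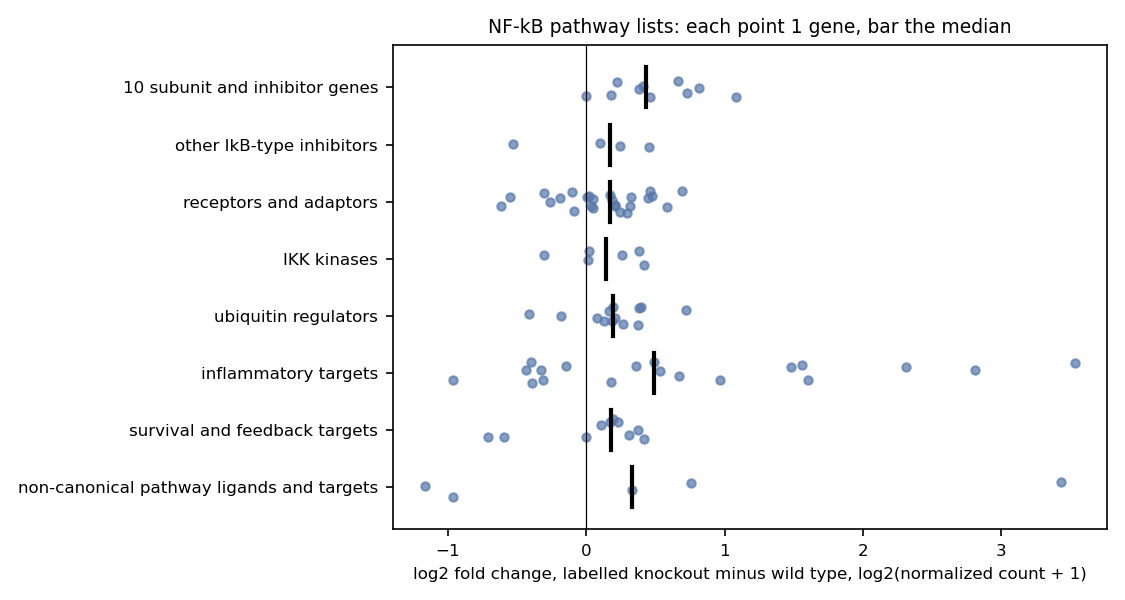
Log2 fold change of labelled knockout minus wild type (x axis) for each tested gene (point) of the 10 subunit and inhibitor genes and of 7 NF-kB pathway lists (rows), with the median of each list as a bar. The bars lie between 0.14 for the IKK kinases and 0.49 for the inflammatory targets. The points of the inflammatory and the non-canonical lists spread the most.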

How the data were processed

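For each gene the deposited signal is a read count scaled within its library: in all 6, 100% of values were whole multiples of 1 step (tolerance 0.001 reads), so the authors' scaling was by a single factor and whole reads could be recovered. The build was mm10, per the submitters' processing notes. The aligner, the counting program and whether strand was used: not given in the sources used here. Samples were grouped by the genotype label.

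The test was limma 3.58.1 (trend and robust) on log2(normalized count + 1), a scale that understates changes of low genes, for the 21721 genes with a mean of at least 1 (all 10 genes passed), with Benjamini-Hochberg adjustment over all of them and a threshold of 0.05. On recovered reads, edgeR 4.0.16 (quasi-likelihood) and DESeq2 1.42.0 were run in R 4.3.3 as alternatives, with 1 call among 15915 genes and 316 among 16222. An exact permutation test of 3 against 3 cannot go below 0.1. TPM were computed from recovered reads and the gene length, another value per gene that the authors deposited. On simulated counts for the comparison of labelled knockout with wild type (21565 genes), 20% of the 2-fold changes were called by limma, 78% of the 4-fold and all (100%) of the 8-fold, beside 5 false calls. The changes were planted only in genes with a mean of at least 50, and each gene's spread was set to the trend for its level. No simulated library was made to stand apart, so these shares can overstate what limma would recover in the real libraries.

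The genes and lists were chosen with earlier results of these data known. Named were the 10 genes, Cxcr2, the 3 genes of smallest p in each pathway list, and the 4 most alike to Rela and to Bcl3 (Pearson correlation). Clptm1, Psd, Gm16175, the markers Ngp, Elane, Stfa2, Kap, Slc3a1 and Slc5a2, the neighbourhood of Bcl3 and the range of GC content were chosen after their values were seen. Ccl19 had no value.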

Additional observations from a re-analysis of the deposited data

How the results depend on the processing

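None of the 10 genes passed the threshold in limma under any of the scalings, pseudocounts, filters and left-out libraries tried, nor with edgeR, and 1, Bcl3, passed with DESeq2 (log2 fold change 1.07). Over all genes, 1 passed in the test as reported, 316 with DESeq2 (105 higher, 211 lower), 4 after TMM scaling, 2 with a pseudocount of 10, 5 without the filter on low values, and 1 to 6 when single libraries were left out (6 when that was labelled-knockout library 1, 3 when it was library 3). With the replicate number as a block 16 genes passed and 0 of the 10. Same-numbered libraries did not deviate together (correlations of deviations 0.067, -0.15 and 0.12, against -0.23 to 0.20 for differently numbered ones). Deviations within groups of 3 libraries cannot show whether the samples were paired. C3 had an adjusted p of 0.0161 under that block. Rel, near 0 as reported, turned to 0.12 with edgeR and with DESeq2, 0.0058 with a pseudocount of 10, and 0.075, 0.061 and 0.33 without wild-type library 2, labelled-knockout library 2 and labelled-knockout library 3, within a range of -0.40 to 0.33 over left-out libraries. Such ranges were -0.31 to 0.62 for Nfkbia, -0.27 to 0.94 for Cxcr2 and 0.0091 to 0.19 for the median of the receptors and adaptors, the lowest values being those without labelled-knockout library 1, wild-type library 1 and labelled-knockout library 3. The looser motif raised the share of the 7 genes with a match from 85.7% to 100%. The cause of these changes was not tested. With 3 libraries a group, the median SE over the 10 genes was 0.25 on the log2 scale.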
